A study of Mus musculus with 1483 samples.

Results

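Parvalbumin interneurons that carry little or no Tac1 made up 337 of the 1483 sequenced cells (22.7%). Members were chosen by measured expression: at least 100 counts per 1000000 reads (CPM) of Gad1, under 10 CPM of Slc17a7, at least 300 CPM of Pvalb, and under 300 CPM each of Sst, Vip and Tac1. These 6 genes are the GABA-synthesising enzyme, the vesicular glutamate transporter of excitatory neurons, the calcium-binding protein parvalbumin and 3 neuropeptide precursors, and their values only describe the cells below. The members came from 24 of 33 mice and from 10 of 11 enhancers.

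The cells are SYFP2-fluorescent neurons of the mouse tissue labelled VISp, an abbreviation of primary visual cortex, sorted singly and sequenced with the SMARTerv4 chemistry. All mice are given as C57Bl/6J, and each carried an AAV vector in which 1 candidate enhancer drives the yellow fluorescent protein SYFP2. The enhancers are eHGT_017h, eHGT_019h, eHGT_023h, eHGT_058h, eHGT_064h, eHGT_078h, eHGT_079h, eHGT_082h, eHGT_128h, eHGT_140h and hDLXI56i, with 4 mice for eHGT_064h, 2 for eHGT_082h and 3 for each of the others. The sort reads the enhancer, so a share of cells below is a share of what an enhancer labelled and not of the tissue. Age and dose are not given here, and a mouse without a virus was not analysed here. The mouse was the replicate throughout.

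Parvalbumin interneurons arise from the medial ganglionic eminence and include fast-spiking basket cells, which contact cell bodies, and chandelier cells, which contact axon initial segments. Their narrow spikes depend on Kv3 potassium channels, and many are wrapped in a perineuronal net of proteoglycans. Tac1 encodes the precursor of the peptides substance P and neurokinin A and is used to divide cortical parvalbumin cells.

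The windows below are the 250 bases upstream of a RefSeq start site (GRCm38.p6) for Tac1, the gene that divides the parvalbumin cells, for Olfm3, which rose in the low-Tac1 cells of every mouse compared, and for Zcchc12, which had the smallest adjusted p of the named genes that fell. Capitals mark the E-box CACGTG and the GC box GGGCGG on either strand, which reads CCGCCC on the other, and the 2 motifs do not overlap in these windows.
Tac1, chr6:7554811-7555060, plus strand: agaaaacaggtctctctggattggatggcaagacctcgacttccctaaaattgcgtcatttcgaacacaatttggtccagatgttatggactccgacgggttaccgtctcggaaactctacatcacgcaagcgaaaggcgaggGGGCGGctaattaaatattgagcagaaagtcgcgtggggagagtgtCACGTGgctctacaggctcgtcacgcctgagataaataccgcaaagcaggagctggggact
Olfm3, chr3:114903828-114904077, plus strand, 1 of 2 listed starts: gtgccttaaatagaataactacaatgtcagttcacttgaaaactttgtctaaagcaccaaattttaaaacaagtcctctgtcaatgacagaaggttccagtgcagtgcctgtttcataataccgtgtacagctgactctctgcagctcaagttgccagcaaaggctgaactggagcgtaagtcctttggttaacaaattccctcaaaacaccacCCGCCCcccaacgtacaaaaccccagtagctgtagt
Zcchc12, chrX:36195654-36195903, plus strand: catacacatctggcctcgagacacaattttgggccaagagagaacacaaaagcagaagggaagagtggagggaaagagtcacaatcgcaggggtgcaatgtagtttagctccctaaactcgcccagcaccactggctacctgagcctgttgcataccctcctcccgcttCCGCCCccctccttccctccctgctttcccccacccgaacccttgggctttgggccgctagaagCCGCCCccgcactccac
The E-box occurs in the Tac1 window and in 6.02% of all 32851 windows of that length, and the GC box occurs in all 3 windows printed and in 32.7% of all windows. Of the 20 genes that met the naming rule for low against high Tac1, 14 matched the promoter table, and 9 of those held a GC box in at least 1 window and 1 held an E-box. Those 14 genes have 19 windows, so these counts per gene cannot be set against the shares per window. These are letter matches and say nothing about binding.

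In the members, Pvalb had a median of 3101 CPM over cells and Gad1 a median of 3490 CPM. Tac1 was listed at 0 in 227 of the 337 cells and was under 100 CPM in 282. In the 235 cells that met every other limit and had at least 300 CPM of Tac1, called high-Tac1 cells here, its median was 1123 CPM. The divide is not empty: 35 members had 150 to 300 CPM, with a median of 218 CPM, and 66 cells had 300 to 600 CPM, with a median of 422 CPM. The Pvalb limit lay in a sparse range, with 6 members below 600 CPM and 4 cells between 150 and 300 CPM left out.

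**Figure D1:**
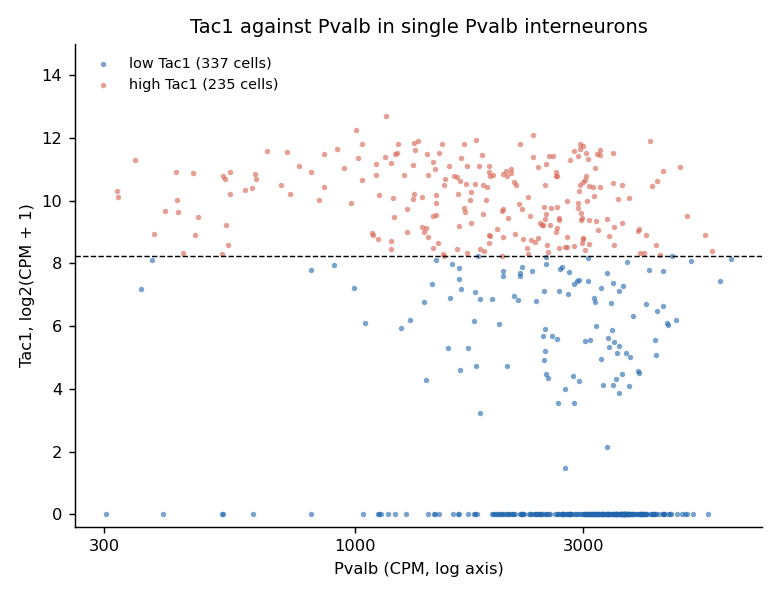
Tac1, as log2(CPM + 1), against Pvalb in CPM on a log axis for the 572 single cells of the parvalbumin gate, with the 337 low-Tac1 cells in blue, the 235 high-Tac1 cells in red and the 300 CPM limit dashed. Most low-Tac1 cells sit on the line of 0 Tac1, and cells lie on both sides of the limit without a gap.

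The label was checked against the markers proposed with it, which were chosen with results of these data known and are no independent evidence. Syt2, the fast calcium sensor of transmitter release at parvalbumin terminals, reached 10 CPM in 90.5% of members, and in 63.4% of high-Tac1 cells, 4.08% of Sst cells and 14.7% of glutamatergic cells. Kcnip2, an accessory subunit of A-type Kv4 channels, reached 10 CPM in 97.3% of members, and also in 97.9% of high-Tac1 cells, 39.6% of Sst cells and 62.0% of glutamatergic cells. Pdlim3, an actinin-binding protein known from muscle, did so in 55.2% of members, in 48.5% of high-Tac1 cells and in 1.08% of glutamatergic cells. Tcap, a titin-binding sarcomere protein, did so in 51.9% of members, in 63.0% of high-Tac1 cells and in 22.6% of glutamatergic cells. Sst cells here are the 245 cells with at least 300 CPM of Sst and under 300 CPM of Pvalb that met the limits on Gad1, Slc17a7 and Vip, and glutamatergic cells are the 279 with at least 100 CPM of Slc17a7 and under 10 CPM of Gad1. All 4 markers were at 10 CPM or more in 115 members, 3 in 116, and none in 6. Median depth was 601964 reads in members, 594059 in high-Tac1 cells, 565909 in Sst cells and 586860 in glutamatergic cells.

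The enhancers differed in how many of these cells they supplied. The members came mainly from eHGT_128h (76 cells), eHGT_140h (69), eHGT_079h (54), eHGT_082h (45), eHGT_023h (42) and eHGT_064h (32). hDLXI56i gave 13, eHGT_058h gave 4, eHGT_017h and eHGT_019h gave 1 each, and eHGT_078h gave none of its 140 cells. Allowing 3 cells would make its share 2.14%, a bound on the counting of pooled cells that leaves out the spread between mice. Over mice, the share of cells that were low-Tac1 parvalbumin cells differed between enhancers (permutation p = 3e-05 over 33 mice, 100000 resamples).

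The share was 51.6% ± 9.95 (SD, n = 3 mice) for eHGT_128h, with mice at 40.4%, 54.7% and 59.6%. For eHGT_082h the 2 mice had 42.5% and 59.6%. For eHGT_140h the mice had 46.5%, 47.8% and 56.2%, a mean of 50.2% ± 5.28 (SD, n = 3). These 3 enhancers overlapped each other, and all of their mice lay above every mouse of eHGT_064h, hDLXI56i, eHGT_058h, eHGT_017h, eHGT_019h and eHGT_078h. For eHGT_079h the mice had 28.3%, 31.2% and 55.3%, and the 4 mice of eHGT_064h lay between 10.6% and 23.3%. For eHGT_023h they had 2.13%, 43.8% and 46.5%, so that 1 mouse lay far from the others of its group. The 3 mice of hDLXI56i, a forebrain interneuron enhancer of the DLX locus, lay between 4.17% and 19.1%.

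No single enhancer passed when set against all other mice (2-sided exact permutation tests, Benjamini-Hochberg over 11 enhancers). eHGT_128h was 32.5 percentage points above the other mice (exact permutation, adjusted p = 0.0796) and eHGT_140h 31 points above (exact permutation, adjusted p = 0.0796). Without the eHGT_082h mouse at 59.6%, the differences were 33.9 and 32.4 points and both passed (exact permutation, adjusted p = 0.0499). Neither passed when any other mouse was left out. Library names begin with the letter G in 24 mice and J in 9, a split whose meaning the labels do not give. Of the enhancers with members in mice of both letters, eHGT_140h had 46.5% and 47.8% under G and 56.2% under J, eHGT_079h had 28.3% and 55.3% under G and 31.2% under J, and eHGT_064h had 12.8% and 23.3% under G and 10.6% and 22.9% under J.

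Among parvalbumin cells alone, the part with low Tac1 also differed between enhancers (permutation p = 0.00612 over 20 mice of 7 enhancers, each with at least 5 parvalbumin cells). eHGT_023h had 83.3% and 87.5% in its 2 such mice, above every mouse of the other enhancers tested. hDLXI56i had 13.3%, 40% and 52.9%, and eHGT_064h ranged from 27.8% to 55.0%. eHGT_079h averaged 62.0%, eHGT_082h 61.7%, eHGT_128h 62.3% and eHGT_140h 54.5%, and their mice overlapped. eHGT_023h differed from the other mice by 32.2 points and hDLXI56i by -24.3 points, and neither passed (exact permutation, adjusted p = 0.0579 for each). Without the hDLXI56i mouse at 13.3% the eHGT_023h difference was 29.97 points and passed (exact permutation, adjusted p = 0.0368). That of hDLXI56i passed, at -26.2 points, without the eHGT_064h mouse at 27.8% (exact permutation, adjusted p = 0.0368). Each passed at no other omission of a mouse. All eHGT_023h mice have library letter J. The J mice of the other enhancers lay lower, at 27.8% and 55.0% for eHGT_064h, 57.7% for eHGT_079h and 58.7% for eHGT_140h.

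**Figure D2:**
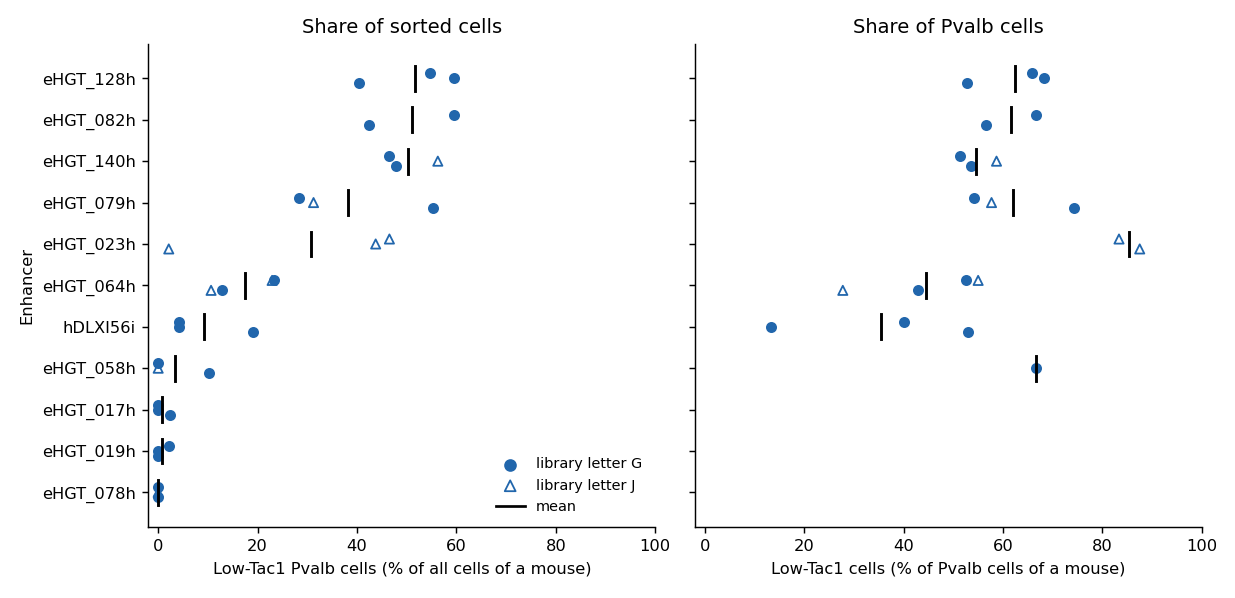
Low-Tac1 parvalbumin cells per mouse by enhancer, as a percent of all sorted cells of the mouse (left, 33 mice) and as a percent of its parvalbumin cells (right, mice with at least 5 of them, including 1 mouse of eHGT_058h that entered no test). Points are mice, filled circles and open triangles are library letters G and J, and bars are means: eHGT_128h, eHGT_082h and eHGT_140h lie together on the left, and eHGT_023h stands highest on the right.

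The comparison with high-Tac1 cells of the same mice asks what else differs across the Tac1 divide. Low-Tac1 cells had more of the synaptotagmin Syt2, of the channel subunits Kcng2 and Scn4b, of the NMDA receptor subunit Grin2a and of the adenosine receptor Adora1. They had less of Necab1, a calcium-binding protein, of the synaptotagmin Syt5, and of the single receptor genes Tacr3, Oprm1 and Chrm2. Of 12 vesicle release genes tested as a list, Syt2 rose and none fell. The comparison used 16 mice of 6 enhancers with at least 5 cells of each kind, 285 low-Tac1 and 207 high-Tac1 cells, and the mean CPM per mouse and cell group. In all, 165 genes passed (0.923% of 17878 tested), 57 higher (0.319%) and 108 lower (0.604%) in low-Tac1 cells, at an adjusted p under 0.05 by limma with mouse as a block and a log2 difference of 1 or more in size.

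Olfm3, a secreted olfactomedin glycoprotein of neurons, had 13.4, 37 and 202 CPM (lowest, median and highest mouse) in low-Tac1 cells. In high-Tac1 cells it had 0.0978, 7.80 and 28.6 CPM. It was higher in low-Tac1 cells in 16 of 16 mice although the 2 ranges overlap (log2 difference 2.39 ± 0.32 SE, limma adjusted p = 4.6e-05). Kcng2, a silent subunit that modifies Kv2 channels, had 2.63, 21 and 42.6 CPM against 0, 2.25 and 11.9 CPM. It was higher in 14 of 16 mice, with overlap (log2 difference 2.44 ± 0.43 SE, limma adjusted p = 0.000898). Ramp3, which pairs with receptors of the calcitonin family, had 7.39, 30.8 and 60.1 CPM against 1.88, 8.56 and 14.2 CPM. Its log2 difference of 1.91 ± 0.24 SE was positive in 15 of 16 mice (limma adjusted p = 2.42e-05).

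The other named rises had log2 differences between 1.29 and 2.13. Adora1, the inhibitory A1 adenosine receptor, had 13, 26.6 and 40.5 CPM against 0, 11.4 and 18.5 CPM and was higher in 16 of 16 mice. Scn4b, a sodium channel beta subunit linked to fast repetitive firing, averaged 20.7 against 8.78 CPM and was higher in 14 of 16 mice. Cdh20, a cadherin, averaged 29.3 against 9.97 CPM, and Hs6st3, which sulfates heparan sulfate, 31.6 against 7.48 CPM. Itm2a, Brinp3 and BC048546 completed the 10, with mean levels of 20.2 to 24 CPM in low-Tac1 cells. With 10 CPM added before the log, Adora1, Scn4b, Cdh20, Brinp3 and BC048546 had differences of 0.69 to 0.95, under the limit. Without the mouse block Scn4b did not pass (limma adjusted p = 0.0781). All the rises named here are at low levels: in the median member 1 read is 1.66 CPM. The 1 CPM added before the log lowers the ratio within a mouse. The log2 differences average over mice, so they can lie above or below the log2 ratio of the mean levels.

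Zcchc12, a zinc finger coactivator of transcription, had 13.5, 40.2 and 108 CPM in low-Tac1 cells and 86.3, 169.9 and 309 CPM in high-Tac1 cells. It was lower in 16 of 16 mice, although the highest low-Tac1 value lies above the lowest high-Tac1 value (log2 difference -2.16 ± 0.19 SE, limma adjusted p = 3.1e-07). Rbp4, the carrier of retinol, had 37.8, 99.7 and 201 CPM against 149.9, 315 and 523 CPM and was lower in 16 of 16 mice (log2 difference -1.77 ± 0.21 SE). Necab1, an EF-hand calcium-binding protein, had the largest named fall, with a median of 3.89 CPM in low-Tac1 and 50.8 CPM in high-Tac1 cells (log2 difference -3.34 ± 0.45 SE). Its lowest high-Tac1 mouse, at 19.3 CPM, lay within the low-Tac1 range, which reached 32.1 CPM.

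Several of the other falls are in genes known from synapses. Cnih3, an auxiliary subunit of AMPA receptors, averaged 5.70 against 26.9 CPM, and Prss12, the synaptic protease neurotrypsin, 5.27 against 28.7 CPM. Syt5, a synaptotagmin, averaged 8.71 against 30.1 CPM. Ptprt, a receptor tyrosine phosphatase, averaged 14.3 against 53.6 CPM, and Fam150b, a ligand of the ALK receptor, 24 against 87.4 CPM. Each of these was lower in 16 of 16 mice. The adenylyl cyclase Adcy2 was lower in 14 of 16, at 7.16 against 22.7 CPM, and was the only named fall with mice in both directions. With 10 CPM added before the log its difference was -0.91, inside the limit.

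**Figure D3:**
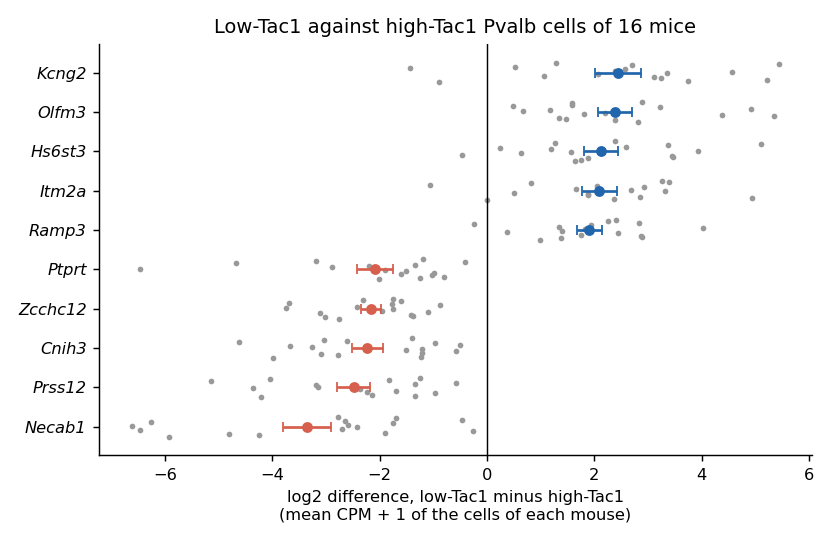
Log2 difference of mean CPM + 1, low-Tac1 minus high-Tac1 cells, for the 5 largest named rises and 5 largest named falls. Grey points are the 16 mice and coloured points the limma estimate with its standard error: in Olfm3, Necab1, Prss12, Cnih3, Zcchc12 and Ptprt all mice lie on the side of the estimate.

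Of the markers, Syt2 passed: it had 78.5, 151 and 249.9 CPM in low-Tac1 cells and 21.1, 76.9 and 223 CPM in high-Tac1 cells, and was higher in 15 of 16 mice, with overlap (log2 difference 1.03 ± 0.15 SE, limma adjusted p = 0.000115). That difference sits at the limit of 1. It came to 0.996 without the eHGT_140h mouse with a low-Tac1 share of 46.5%, to 0.993 and 0.922 without the eHGT_079h mice at 28.3% and 31.2%, to 0.93 in mice of letter G, to 0.86 under a Pvalb limit of 1000 CPM, and to 0.89 in voom on recovered reads. Kcnip2 averaged 279.7 against 194 CPM, a log2 difference of 0.48 below that limit (limma adjusted p = 0.0206). Pdlim3 averaged 71.9 against 44.5 CPM (limma adjusted p = 0.091) and Tcap 55.6 against 54.2 CPM (limma adjusted p = 0.83). Pvalb itself, a gene of the rule and so not tested, averaged 3036 CPM in low-Tac1 and 2062 CPM in high-Tac1 cells.

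**Figure D4:**
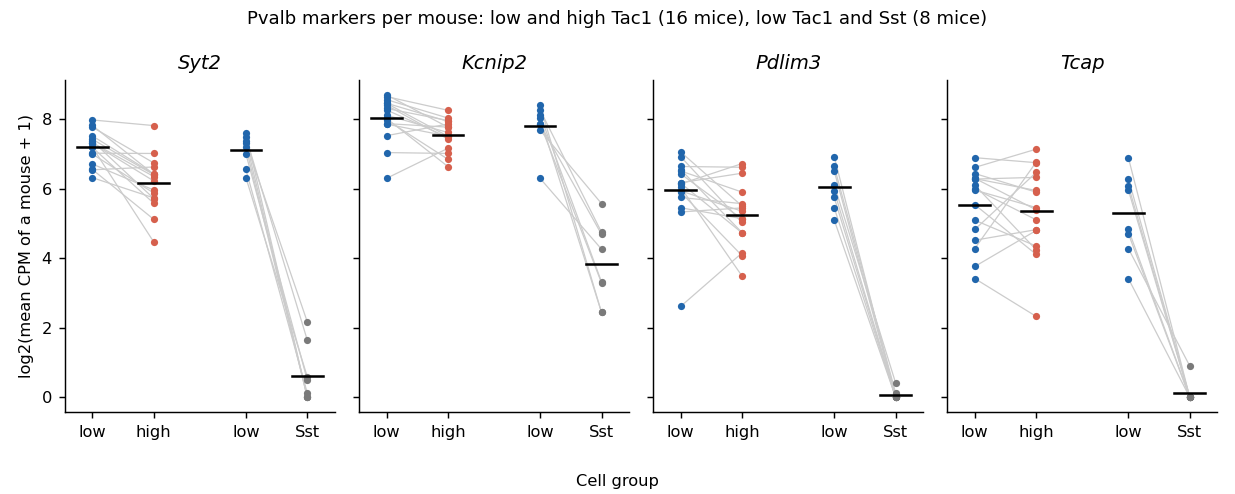
Mean CPM per mouse on the log2(CPM + 1) scale for 4 markers. In each panel the left pair joins low-Tac1 (blue) and high-Tac1 (red) cells of 16 mice, the right pair joins low-Tac1 and Sst cells (grey) of 8 mice, and bars are means: low-Tac1 and Sst cells do not overlap for any of the 4, whereas low-Tac1 and high-Tac1 cells overlap for all 4.

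Genes that divide parvalbumin cells into subtypes moved in both directions: 3 of 11 tested rose and 1 fell, where 0.319% of all genes tested rose and 0.604% fell. Akr1c18, an enzyme that inactivates progesterone and a member of a cluster of similar genes between which reads could have been split, had 123, 238 and 462 CPM in low-Tac1 cells and 14, 104 and 287 CPM in high-Tac1 cells. It was higher in 15 of 16 mice, with overlap (log2 difference 1.24 ± 0.22 SE, limma adjusted p = 0.00109). Reln, the secreted matrix protein reelin, rose as well, at 12.1 against 6.14 CPM (limma adjusted p = 0.0447), as did Itm2a, and Islr fell, at 0.964 against 5.32 CPM. Calb1, the calcium buffer calbindin, averaged 472 against 796 CPM and did not pass (limma adjusted p = 0.29).

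Within the members these genes overlapped in part. Akr1c18 reached 100 CPM in 174 members (51.6%) and Calb1 in 99 (29.4%), and 35 had both while 99 had neither. Among high-Tac1 cells the shares were 28.1% for Akr1c18 and 51.1% for Calb1. Sema3e, a semaphorin, reached 100 CPM in 28 members, of which 22 also had Akr1c18. Itm2a did so in 15, of which 11 had Akr1c18, and Reln in 12, of which 6 did, and in 83 members none of the 13 subtype genes did. Of the 3 chandelier cell genes on the list, Vipr2 and Nkx2-1 reached 100 CPM in no member and Unc5b in 1. By enhancer, the mean share of members with Akr1c18 ran from 44.1% in eHGT_079h to 62.7% in eHGT_082h.

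Of the gene families, few members passed across the Tac1 divide, where 0.319% of all genes tested rose and 0.604% fell. Among 12 fast-spiking channel genes 11 had a positive difference, but only Scn4b passed, with a list median of 0.27 against 0.01 for all genes tested. Kcna1, a Kv1 channel, averaged 407 against 257 CPM and Kcnc1, the Kv3.1 channel, 698 against 605 CPM, both higher in 16 of 16 mice and both with a log2 difference under 1. Grin2a, the NMDA receptor subunit GluN2A, was the only one of 14 glutamate receptor genes to pass. It had 46.2, 99.8 and 137 CPM against 17.9, 39.2 and 100.5 CPM, and was higher in 16 of 16 mice, with overlap (log2 difference 1.22 ± 0.16 SE, limma adjusted p = 4.28e-05).

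Of 17 peptide and modulator receptor genes tested, 3 fell and none rose, where 0.604% of all genes tested fell. Tacr3, the neurokinin B receptor, averaged 8.64 against 19.7 CPM (limma adjusted p = 0.0339). The muscarinic receptor Chrm2 averaged 8.78 against 18.7 CPM (limma adjusted p = 0.0131) and the mu opioid receptor Oprm1 6.83 against 15 CPM (limma adjusted p = 0.0416). Few cells carried these levels: Tacr3 was listed at 0 in 290, Chrm2 in 296 and Oprm1 in 288 of all 337 members. No neuropeptide gene passed among the 9 tested, whose median log2 difference was -0.64. Cortistatin (Cort) averaged 217 against 429.6 CPM, a log2 difference of -0.99 just inside the limit, and Npy 287 against 765 CPM (limma adjusted p = 0.0591). No gene of the lists for perineuronal nets (9 tested), GABA-A receptor subunits (11), mitochondrial energy (12), neurofilaments (4) or immediate early genes (12) passed.

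Depth and other cells' markers were measured beside these differences. Reads per cell, as the mean over mice of each mouse's median, were 611417 in low-Tac1 and 599233 in high-Tac1 cells, and genes per cell were 9904 and 9755, higher in low-Tac1 cells in 12 of 16 mice. Summed astrocyte markers ranged over mice from 0.276 to 10.3 CPM in low-Tac1 and from 1.28 to 27.3 CPM in high-Tac1 cells, and 1 of 5 tested, Sox9, fell. Oligodendrocyte markers ranged from 12.9 to 102 and from 3.65 to 110.3 CPM with none of 4 passing, microglia markers reached 10.5 and 8.73 CPM and endothelial markers 3.03 and 3.5 CPM. Glutamatergic markers averaged 131 and 135 CPM, mostly Slc30a3 at 79.5 and 93 CPM, with none of 4 passing. Markers of Lamp5 interneurons summed to 27.8 to 684 CPM in low-Tac1 and 150.2 to 1941 CPM in high-Tac1 cells, mostly Npy. Of these, Id2 fell, at 7.13 against 19.4 CPM, while Lamp5 itself averaged 0.712 and 0.331 CPM. Immediate early genes, which rise with recent activity, summed to a mean of 317 CPM in low-Tac1 and 395 CPM in high-Tac1 cells and were higher in low-Tac1 cells in 4 of 16 mice. Of these 12 genes 1 had a positive difference, the list median was -0.41, and Fos averaged 95.1 against 138 CPM, lower in 14 of 16 mice with a log2 difference of -0.63 (limma adjusted p = 0.00157). The part of all these in the differences was not tested.

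The count of calls depended on the mice. In the 12 mice of library letter G, 134 genes were called, of which 109 were among the 165. In the 4 mice of letter J 11 were called, of which 7 were among them. Every named gene kept its sign in both sets. None of the named rises passed in the letter J mice, with limma adjusted p from 0.11 (Adora1) to 0.58 (Brinp3). Nor did Syt2, or the falls of Necab1, Prss12, Cnih3, Ptprt, Adcy2, Syt5 and Fam150b. Without the 4 eHGT_064h mice 72 genes rose and 81 fell.

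Against Sst interneurons, the other large class from the medial ganglionic eminence, the members differed broadly. Low-Tac1 cells had more of the Pvalb markers, of Kv3 and sodium channels, of perineuronal net genes and of several GABA-A receptor subunits. They had less of most neuropeptides. The comparison used 8 mice, 4 of eHGT_064h and 2 each of eHGT_023h and eHGT_079h, with 101 low-Tac1 and 112 Sst cells. By the same criteria 1695 genes passed (10.1% of 16848), 740 higher (4.39%) and 955 lower (5.67%).

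Cox6a2, the muscle-type subunit of cytochrome c oxidase, had 240.2, 375 and 679 CPM (lowest, median and highest mouse) in low-Tac1 cells and 0, 0.435 and 12.3 CPM in Sst cells. The ranges did not overlap (log2 difference 7.53 ± 0.35 SE, limma adjusted p = 4.3e-09). Syt2 had 78.5, 152 and 191 CPM against 0, 0.244 and 3.48 CPM, and Pdlim3 33.2, 64 and 119.8 CPM against 0, 0 and 0.329 CPM. Kcnip2 had 77.4, 245 and 336 CPM against 4.43, 13.6 and 46.4 CPM, and Tcap 9.65, 44.2 and 117 CPM against 0, 0 and 0.866 CPM. All 4 markers thus stood apart in all 8 mice.

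Among the other named rises, Cck, the cholecystokinin precursor, averaged 239 against 3.15 CPM. Mybpc1, a myosin-binding protein known from slow muscle, averaged 107 against 0.609 CPM, and Pthlh, the parathyroid hormone-related peptide, 75.9 against 0.374 CPM. Caln1, a neuronal calcium sensor, averaged 173 against 2.46 CPM and Parm1 182 against 5.43 CPM. The 8 named rises had log2 differences of 5.95 to 7.53, and in none did the 2 cell groups overlap.

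Of the named falls, Pdyn, the prodynorphin gene, was listed at 0 in all 337 members and had 831, 1304 and 1836 CPM in Sst cells. With 3 reads allowed over the 101 low-Tac1 cells compared, it was at least 25700-fold lower. Hpse, the enzyme heparanase, was at 0 in those 101 cells, at least 1940-fold lower than its 99.4 CPM in Sst cells, and above 0 in 2 of all members. These bounds cover counting error only. The other falls were Pde1a, a phosphodiesterase (0.458 against 405 CPM), Calb2, which encodes calretinin (0.605 against 315 CPM), the adenylyl cyclase Adcy2 (3.93 against 366 CPM) and the synaptic organiser Cbln4 (2.44 against 215 CPM). The NMDA receptor subunit Grin3a (7.91 against 286 CPM) and the vesicle protein Synpr (71.3 against 1884 CPM) completed the 8, and none overlapped.

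Of the fast-spiking channel list, 8 of 12 genes rose and none fell, with a list median of 1.20 against 0.00 for all genes tested. Of all genes tested against Sst cells, 4.39% rose and 5.67% fell. Kcnc1 had 520.5, 649.7 and 949 CPM in low-Tac1 cells and 124, 171 and 304 CPM in Sst cells, without overlap (log2 difference 1.89 ± 0.06 SE, limma adjusted p = 8.76e-11). Kcna1, Kcnab3, Scn1a and Scn4b were among the others that rose, with log2 differences of 1.05 to 2.87. Kcnc2, Kcns3, Kcna2 and Scn8a had differences of 0.57 to 0.96, below the limit. Of 9 perineuronal net genes 5 rose: the proteoglycans Acan and Bcan, the link proteins Hapln1 and Hapln4, and the hyaluronan synthase Has3. Hapln4 averaged 238 against 57.3 CPM and Hapln1 38.1 against 4.37 CPM.

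Of 12 GABA-A receptor subunit genes, 6 rose (among them Gabra4, Gabrb2, Gabrd and Gabrg3) and 2 fell (Gabra2 and Gabrg1). The shares over all genes tested, for these and the next lists, were 4.39% higher and 5.67% lower. Gabrd, the delta subunit of extrasynaptic receptors, had 384, 446 and 532 CPM against 31.4, 93.3 and 274 CPM, without overlap (log2 difference 2.11 ± 0.29 SE, limma adjusted p = 0.000304). Of 13 glutamate receptor genes none rose and 3 fell, among them Grin3a and Grik1. The list of mitochondrial energy genes gave 3 rises of 12, Cox6a2, Ckb and Esrrg, where Esrrg, a nuclear receptor of oxidative metabolism, averaged 163 against 23.4 CPM. In vesicle release, Syt2, Cplx1 and Vamp1 rose and Cplx2 fell, and of 11 transcription factors of the lineage only Satb1 passed, lower at 189 against 400.5 CPM.

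Neuropeptide genes mostly fell: 7 of 10 were lower (Pdyn, Npy, Penk, Crh, Crhbp, Vgf and Pnoc) and Cck was higher. Beside these and the lists below, 5.67% of all genes tested were lower and 4.39% higher. Npy averaged 315 against 4656 CPM, and its ranges did not overlap. In peptide and modulator receptors, 3 of 18 rose (Adra1a, Drd1 and Tacr3) and 5 fell (Sstr1, Chrm2, Chrm3, Oprm1 and Npy1r). Of 4 interferon response genes tested, Ifit1 and Ifit3 fell, at 0.680 against 65.9 CPM and 7.20 against 86.2 CPM. Among 12 immediate early genes Arc, Egr1 and Egr3 fell and Dusp1 rose. The myelin gene Mbp averaged 20.8 against 43.8 CPM, and no oligodendrocyte marker passed (5 tested), while 2 of 4 glutamatergic markers, Nrgn and Slc30a3, fell, and the part of these in the differences was not tested. The 3 mice of letter G alone gave 844 calls, of which 733 were among the 1695, and the 5 of letter J gave 1296, of which 1147 were.

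**Figure D5:**
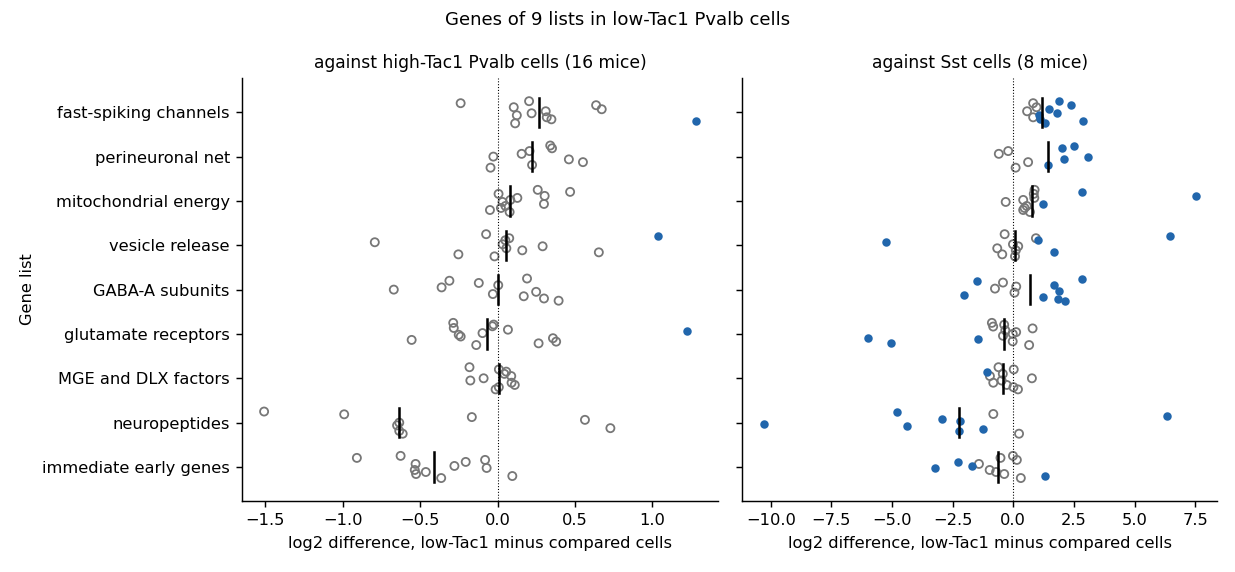
Log2 difference of each tested gene of 9 lists, low-Tac1 minus high-Tac1 cells (left, 16 mice) and low-Tac1 minus Sst cells (right, 8 mice), without the 6 genes that chose the cells and on axes of different range. Filled blue points passed both limits, open points did not, and black bars are list medians: fast-spiking channels and perineuronal net genes lie mostly to the right against Sst cells, and neuropeptides mostly to the left.

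The last comparison set the members against all other cells of the same mouse, whose make-up differs with the enhancer. Here too the members had more Syt2, Pdlim3, Mybpc1, Parm1, Ramp3 and Kcng2, together with Trps1, a GATA-type repressor, and Adamtsl5, a secreted matrix protein. Of these, Syt2, Ramp3 and Kcng2 also passed against high-Tac1 cells, and Pdlim3 did not. Levels of Mybpc1, Parm1, Trps1 and Adamtsl5 in high-Tac1 cells are not given here. Their rise over mixed cells does not show that they are particular to low-Tac1 cells. In 18 mice with 326 members, 697 genes passed (3.77% of 18466), 78 higher (0.422%) and 619 lower (3.35%). Syt2 had 78.5, 158 and 249.9 CPM against 7.27, 43 and 168 CPM and was higher in 18 of 18 mice, with overlap (log2 difference 2.03 ± 0.22 SE, limma adjusted p = 1.16e-06). Trps1 had 38.4, 79.2 and 276 CPM against 9.96, 30.7 and 55.9 CPM, also higher in 18 of 18 mice. All 4 markers rose, at log2 differences of 1.10 (Tcap) to 2.03. The Tcap difference was under the limit in voom on recovered reads (0.89) and for Tac1 under 100 CPM (0.99). With 10 CPM added before the log, Tcap (0.78) and Kcng2 (0.90) were under it.

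The named falls were genes at low levels in the members. Pde1a averaged 0.272 against 116 CPM, Fxyd6, a modulator of the sodium pump, 0.0618 against 86.9 CPM, and Baiap2, a scaffold of the postsynaptic density, 0.406 against 30.5 CPM. Pcp4, a calmodulin-binding peptide, averaged 6.82 against 138 CPM and was lower in 18 of 18 mice. Adcy2, Cbln4, Syt5 and Necab1 also fell, with log2 differences of -4.32 to -3.69. Markers of the classes outside the gate were lower as lists: 6 of 7 for Sst cells, 5 of 5 for Vip cells and their lineage, 3 of 6 for Lamp5 cells and 3 of 8 for glutamatergic cells fell, and none rose. The limits of the gate put cells of these classes in the other group. These falls therefore follow from the choice of cells and are no finding about the members. Immediate early genes fell in 6 of 12 (Arc, Egr1, Egr2, Egr3, Fosb and Nr4a1), where 3.35% of all genes tested fell. Of 12 neuropeptide genes 7 fell, and 2 of 12 fast-spiking channel genes rose, among them Scn4b, where 0.422% of all genes tested rose.

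Between enhancers, the members' own expression could be compared over 17 mice of 6 enhancers. With limma, 0 genes of 16265 passed the omnibus test (0%, smallest adjusted p = 0.0599). At an unadjusted p under 0.05 there were 940 genes (5.78%). With limma voom on recovered reads 0 genes passed adjusted and 1477 had an unadjusted p under 0.05 (9.08%).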

How the data were processed

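Full-length transcriptomes of single sorted cells were analysed as 1 table of 1483 cells by 45768 genes. The authors deposited CPM values, each cell summing to 1000000. STAR and mm10 appear, with no version or role, per the submitters' processing notes. The counting program, annotation and cell filters are not given here, and without strand, reads of a gene and of an overlapping antisense gene cannot be told apart. Reads per cell were recovered from the deposited CPM, of which 100% above 0 came out as whole reads at a tolerance of 0.01 read. Reads per cell had a median of 586338, and 16 cells held fewer than 100000. Total reads per mouse ranged from 17123400 to 35856000. Molecular identifiers were not part of the values, so floors cover counting error only. No cell was filtered, no doublet caller was run, and no cell name occurred more than once.

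CPM was averaged over the cells of 1 mouse and 1 cell group (at least 5 cells), and log2(mean + 1) was fitted with limma 3.58.1 (trend, robust, statmod 1.5.0, R 4.3.3), with mouse as a block, for genes of at least 1 CPM in at least 2 values. Genes were called at a Benjamini-Hochberg adjusted p under 0.05 over all genes tested and a log2 difference of 1 or more in size, and the 6 rule genes were never counted. Shares were compared by 2-sided exact permutation over mice, and omnibus tests used 100000 resamples. On simulated data, the fit against high-Tac1 cells (17756 genes) called 100 of 100 genes changed by 1.5 and 99 of 100 changed by 3 on the log2 scale, with 1 unchanged gene. The fit between enhancers (15802 genes) called 98 and 99 with 4 unchanged genes. The simulated noise was normal on the log2 scale and the changed genes had means of at least 20 CPM, so recovery of lower genes was not measured.

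Named genes were called genes with a mean of 20 CPM or more in the higher group and the same sign in at least 80% of mice: the 10 largest changes each way against high-Tac1 cells and the 8 largest in the comparisons with Sst and with all other cells. Sex-linked marker genes, genes with only a clone name, pseudogenes and genes of the mitochondrial genome or ribosomal proteins were not named, and some genes are not reported here. List examples were taken by size of difference, and others were named for their role after the values were seen. The members, markers, lists and tests were chosen with earlier results of these data known. Python 3.11.15, numpy 2.4.6, pandas 2.3.3, scipy 1.17.1 and matplotlib 3.10.9 were used. The alternatives covered pseudocount, filter, fold limit, mouse block, minimum cells, depth, gate limits, library letter, voom and single mice.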

Additional observations from a re-analysis of the deposited data

Results flagged for a closer look

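Whether the difference between low-Tac1 and high-Tac1 cells varies with the enhancer was tested over 15 mice of 5 enhancers with at least 2 mice each, a comparison chosen after seeing the data. Of 17665 genes, 1 passed the omnibus limma test of the per-mouse differences, Fam53c (adjusted p = 0.00854), and 746 had an unadjusted p under 0.05 (4.22%). None of the genes named for the Tac1 divide passed. In the 4 eHGT_064h mice Fam53c averaged 4.51 CPM in low-Tac1 and 24.2 CPM in high-Tac1 cells, with log2 differences of -2.40 to -1.97. In the 3 mice each of eHGT_079h, eHGT_128h and eHGT_140h and the 2 of eHGT_082h the differences lay between -0.60 and 0.58. No mouse stood apart from its group beyond Dixon's limit in the 20 groups of 4 to 10 values examined, namely the eHGT_064h shares and the differences of named genes from Sst cells.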

How the results depend on the processing

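No named gene changed sign under the alternatives run. Against high-Tac1 cells the 165 calls became 26 with a pseudocount of 10, 870 without the fold limit, 11 in mice of letter J (added after seeing the data) and 268 for Tac1 under 100 against at least 1000 CPM, where 149 genes rose and 119 fell. With at least 10 cells per group, 81 rose and 80 fell. Leaving out 1 mouse gave 143 to 168. Against Sst cells the 1695 calls became 643 with a pseudocount of 10, 3671 without the fold limit, 929 with at least 10 cells (2 mice) and 844 in letter G, and 1547 to 1681 without 1 mouse. Against all other cells the 697 became 1495 and 161 with pseudocounts of 0.1 and 10, 4229 without the fold limit and 1263 with voom (added after seeing the data), and 647 to 754 without 1 mouse. Between enhancers the count became 2 with a pseudocount of 0.1 and 29 without the filter on low values, and stayed at 0 without any 1 mouse. The cause was not tested.

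The eHGT_140h share passed at a Tac1 threshold of 1000 CPM (48.4 points), and the low-Tac1 share of parvalbumin cells passed under 100 CPM for eHGT_023h (32.4) and hDLXI56i (-26.6). Without 1 mouse the differences ran from 28.5 to 38.1 for eHGT_128h and 27.97 to 32.8 for eHGT_140h in the share of cells, and from 29.97 to 33.4 for eHGT_023h and -33.1 to -13.3 for hDLXI56i in the share of parvalbumin cells. Of 336 values of named genes and markers against high-Tac1 cells under other settings, 304 kept their side of the limits, 30 lost the call and 2 gained it. The planned count-model fits were not run, and voom on recovered reads took their place. No paired analysis was possible between enhancers because replicate numbers are mouse identities that no 2 enhancers share. The cell groups of 1 mouse are paired by the mouse block, and without it the counts were 128 against high-Tac1, 1672 against Sst and 692 against all other cells. Depth limits genes near 1 read per cell.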

Other observations

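Some genes with differences under 1 on the log2 scale were nevertheless the same way in nearly all mice, and are given here as values chosen after they were seen. Gad2, a GABA-synthesising enzyme that the rule did not use, was lower in low-Tac1 than in high-Tac1 cells in 16 of 16 mice (means of 422 and 563 CPM, log2 difference -0.41 ± 0.04 SE, limma adjusted p = 3.1e-07). Vamp2, a vesicle protein, was lower in 16 of 16 mice (1040.3 against 1230.2 CPM), where its paralog Vamp1 was higher in 16 of 16 (573 against 364 CPM). The granule protein genes Scg2 and Vgf averaged 1323 against 1973 CPM and 167 against 250.5 CPM, each lower in 15 of 16 mice. Gabrd, a subunit of extrasynaptic GABA-A receptors, at 434 against 330.4 CPM, was higher in 16 of 16.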
